A study of Homo sapiens with 12 samples.

Results

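Serine synthesis and folate-dependent one-carbon metabolism were followed through 9 human genes, chosen by name from the 60664 genes of the count table: PHGDH, PSAT1 and PSPH of serine synthesis, SHMT1 and MTHFD1 of the cytosolic folate arm, and SHMT2, MTHFD2, MTHFD1L and ALDH1L2 of the mitochondrial folate arm. Each symbol matched 1 Ensembl identifier. The RNA came from a pair of human cell lines of B-lineage acute lymphoblastic leukaemia, TOM-1, which has the BCR-ABL1 fusion of the Philadelphia chromosome, and RS4;11, which has a rearranged KMT2A gene. Each line was grown as a control culture or with ADI-PEG20 at 1000 ng/ml for 24 h, and each of the 4 groups held 3 libraries. ADI-PEG20 is arginine deiminase coupled to polyethylene glycol. It depletes arginine from the medium by turning it into citrulline, from which cells with argininosuccinate synthase (ASS1) can remake arginine. The title of the series concerns deficiency of ASS1 in Philadelphia-positive leukaemia. Each genotype was represented by a single line, so genotype and line cannot be told apart. Nothing in the labels says that the libraries of a group came from separate cultures, so p-values measure the spread between these libraries, which may be technical.

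Cells make serine from the glycolytic intermediate 3-phosphoglycerate through PHGDH, PSAT1 and PSPH in turn. Serine hydroxymethyltransferase, SHMT1 in the cytosol and SHMT2 in mitochondria, then moves a carbon of serine onto tetrahydrofolate and leaves glycine. In mitochondria MTHFD2 oxidises that carbon, which MTHFD1L then releases as formate or ALDH1L2 oxidises to carbon dioxide. In the cytosol MTHFD1 turns formate back into folate-bound units for purine and thymidylate synthesis. Proliferating leukaemia cells depend on these units for nucleotides, and antifolates are established drugs against acute lymphoblastic leukaemia. Several of these genes are known targets of ATF4, the transcription factor of the amino acid response.

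In TOM-1 under ADI-PEG20 both cytosolic enzymes were called lower and 2 of the 4 mitochondrial enzymes higher. SHMT1 RNA fell 2.11-fold, MTHFD1 was 1.30-fold lower, close to the threshold, and the mitochondrial enzymes MTHFD2 and MTHFD1L rose 1.59-fold and 1.45-fold, as did PSPH of serine synthesis, 1.66-fold. Calls for PHGDH and SHMT2 turned on a single control library: without it they rose 1.42-fold and 1.68-fold. ALDH1L2, the remaining mitochondrial enzyme, had at most 21 counts in a TOM-1 library and did not rise in either fit. In RS4;11 none of the 9 genes passed the test. PSAT1 RNA was nearly absent from TOM-1, with at most 9 counts in a library, and stood at 123 to 164 CPM in RS4;11. CPM here are counts set to a common library size with edgeR's TMM factors.

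Total counts per library ran from 18958144 to 35956959. TOM-1 control replicate 3 stood apart from the other 11 libraries. It had reads in 14963 genes, against 19857 to 21997 elsewhere, and its log2 CPM correlated at 0.926 and 0.921 with the other TOM-1 controls across genes, against 0.975 to 0.983 for all other pairs of replicates. Results of the 9 enzymes that rest on it are therefore given with and without it, over 17349 tested genes with all 12 libraries and 18321 without. The 8 B-lineage markers were above 3 counts in every group, summing to 5356 to 6654 CPM in TOM-1 and 1947 to 2265 CPM in RS4;11, and CD3D, CD3G, CD2 and HBB were at or under 3 counts in every library. B-lineage markers thus summed to more in TOM-1, and the 7 T-lineage markers to more in RS4;11 (424 to 480 CPM) than in TOM-1 (123 to 210 CPM). The T-lineage sums rest on few genes. Only 2 of the 7 passed 3 counts in a library of each TOM-1 group and of RS4;11 control, and 3 in RS4;11 with ADI-PEG20. Only TRAC did so in every group. CD5 passed in TOM-1 but not in RS4;11 control, and CD8A the reverse. The part of these markers in the differences between the lines was not tested.

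Of the 9 genes, 6 have a start site listed in the RefSeq promoter table (GRCh38.p14). PSPH, SHMT2 and ALDH1L2 were not matched. The 250 bases before each start were searched on both strands for TGATGNAA, the core of the composite element bound by ATF4 and C/EBP factors, for CACGTG, the E-box core, and for CCAAT. These motifs were found before 3.14%, 6.34% and 32.01% of 35116 listed starts. The sequences below are shown because MTHFD1L and MTHFD1 were the only genes of those searched with a match to TGATGNAA or CACGTG, and because PSAT1 has the largest difference between the lines among the 9 genes. Capitals mark TGATGNAA for MTHFD1L (chr6:150866346-150866375, plus strand, 90 bases before the start at 150866447), CACGTG for MTHFD1 (chr14:64388323-64388352, plus strand, 15 bases before the start) and the 3 CCAAT matches for PSAT1 (chr9:78296875-78297124, plus strand, the whole 250 bases).
MTHFD1L: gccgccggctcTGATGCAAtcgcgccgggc
MTHFD1: tggccagtccctaagCACGTGggttgggtt
PSAT1: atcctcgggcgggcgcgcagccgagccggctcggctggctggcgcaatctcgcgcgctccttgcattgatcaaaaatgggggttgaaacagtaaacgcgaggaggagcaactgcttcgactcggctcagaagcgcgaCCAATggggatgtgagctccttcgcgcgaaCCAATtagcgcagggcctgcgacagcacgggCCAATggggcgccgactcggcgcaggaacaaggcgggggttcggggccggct
TGATGNAA was found before 2 of the 4 listed starts of MTHFD1L, at the same bases, and before no listed start of the other 5 genes searched. CACGTG was found before MTHFD1 and before the same 2 starts of MTHFD1L, and CCAAT before at least 1 start of each of the 6 genes. The searched bases can lie inside annotated exons. In GENCODE all 250 bases before the listed start of MTHFD1 were exonic, so its CACGTG lies in an exon of MTHFD1. The exonic bases were 249 for MTHFD2, 219 for PHGDH, 13 for SHMT1 and 0 for PSAT1. They were 55 for each of the 2 starts of MTHFD1L with TGATGNAA. A match is a description of these letters and says nothing of binding.

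Serine synthesis begins with PHGDH, 3-phosphoglycerate dehydrogenase (ENSG00000092621, chromosome 1, 119648411 to 119744226, plus strand; all gene positions are from GENCODE release 29 on GRCh38). Its level was 346, 347 and 705 CPM in TOM-1 control replicates 1 to 3, and 496, 510.4 and 475 CPM with ADI-PEG20. Replicate 3 of the controls lay above every treated library, and the other controls lay below them. With all libraries the log2 fold change was 0.08 (SE 0.22; edgeR, adjusted p = 0.835). Without replicate 3 it was 0.51 (SE 0.06; edgeR, adjusted p = 3.68e-07), and the groups did not overlap. In RS4;11 PHGDH stood at 263, 239.8 and 257 CPM in control and 266, 252 and 262 CPM with ADI-PEG20, and the groups overlapped.

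PSAT1, phosphoserine aminotransferase (ENSG00000135069, chromosome 9, 78297143 to 78330093, plus strand), had 9, 0 and 0 counts in the TOM-1 control libraries and 0, 4 and 6 counts in the treated ones. At 3 counts, the limit that a count of 0 allows, the gene was at or under the floor in 3 of these 6 libraries. No effect of ADI-PEG20 is given for TOM-1, because 9 counts against 10 carry no usable fold. In RS4;11 the level was 123, 133 and 133 CPM in control and 159.9, 164 and 142 CPM with ADI-PEG20. Every treated RS4;11 library lay above every control, but the log2 change of 0.26 (SE 0.32) was not called (edgeR, adjusted p = 1.0; without TOM-1 control replicate 3 the adjusted p was 0.27). In bulk RNA, fewer cells that express a gene and less RNA per cell cannot be told apart.

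The difference between the lines in PSAT1 was given as a ratio of summed counts, with a 95% exact interval for counting error only. RS4;11 control exceeded TOM-1 control 1137-fold (interval 598.5 to 2487; 8873 counts against 9), and 876-fold without TOM-1 control replicate 3. Under ADI-PEG20 the ratio was 1169-fold (interval 635.5 to 2439; 10168 counts against 10). PSAT1 passed the filter on low counts only through RS4;11, so a difference in this direction was a condition of its being tested. Of its listed pseudogene copies, PSAT1P3 had the highest count, 2 in a library.

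PSPH, phosphoserine phosphatase, which releases serine in the last step (ENSG00000146733, chromosome 7, 56011051 to 56051604, minus strand), stood at 67.4, 55.3 and 82.5 CPM in TOM-1 control. With ADI-PEG20 it stood at 113, 119.5 and 107 CPM, above every control library. It rose by 0.73 on the log2 scale (SE 0.15; edgeR, adjusted p = 0.00369). Without TOM-1 control replicate 3 the rise was 0.88 (SE 0.10, adjusted p = 4.26e-07). A fit on the 6 TOM-1 libraries alone did not call it (edgeR, adjusted p = 0.0527). The RS4;11 values were lower, at 38.2, 32.7 and 34.5 CPM in control and 39.4, 35.5 and 31.6 CPM with ADI-PEG20, and overlapped. The pseudogene PSPHP1 had up to 177 counts in a library, so reads of the pair can have been split by the counting. 

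**Figure D1:**
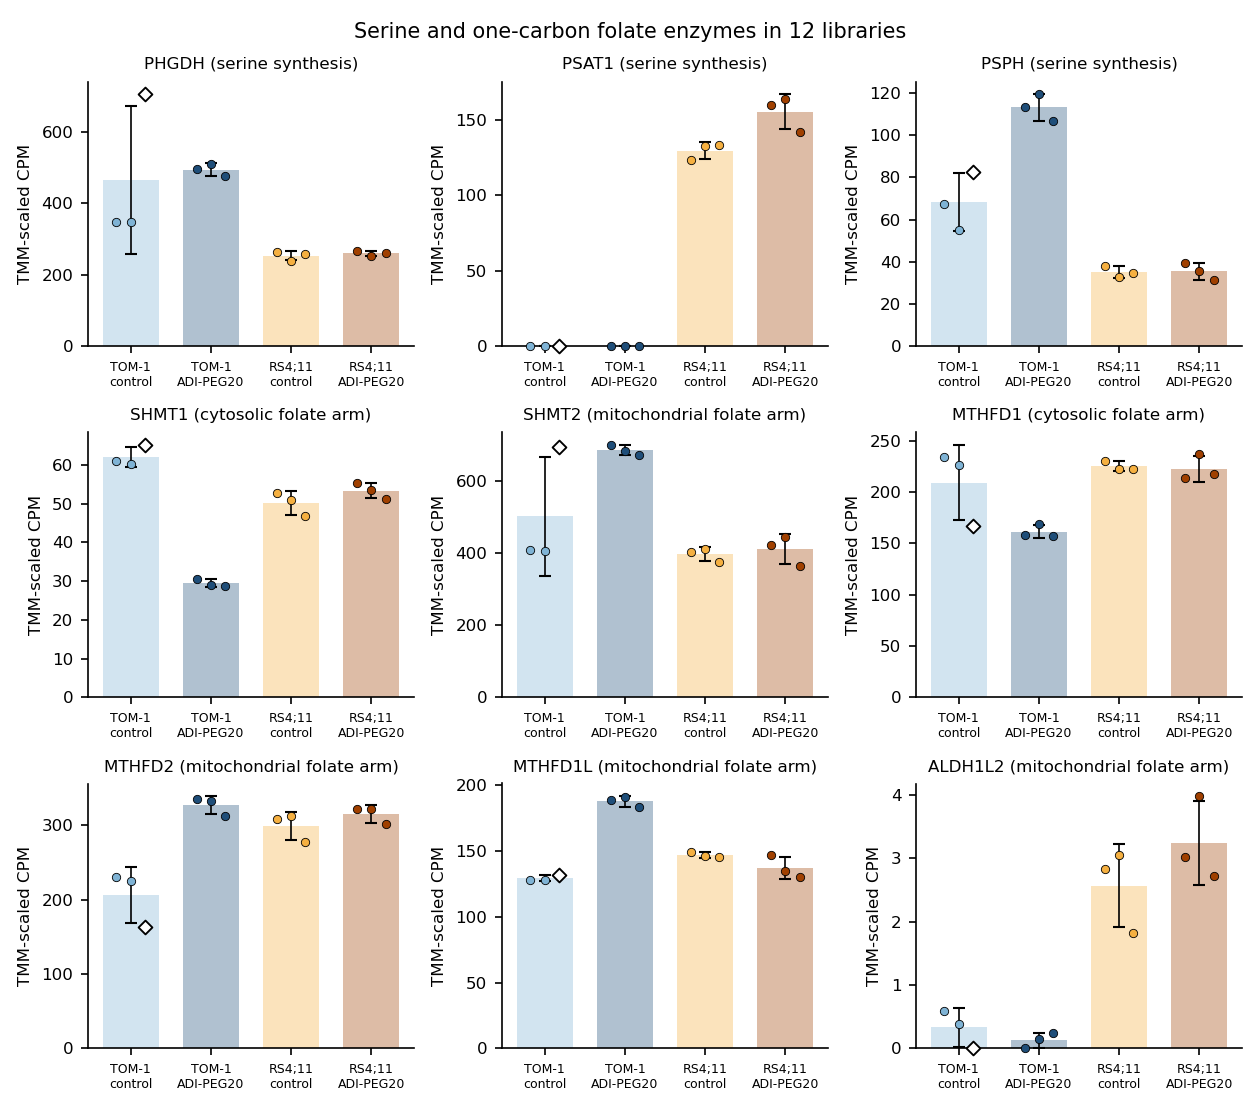
Level of each of the 9 enzymes in every library, as TMM-scaled CPM on linear axes that start at 0, with a separate scale per gene. Bars are group means, error bars are SD over 3 libraries, points are libraries, and the open diamond is TOM-1 control replicate 3, which for PHGDH lies at 705 CPM against 346 and 347 CPM in the other controls.

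In the cytosolic arm, SHMT1 (ENSG00000176974, chromosome 17, 18327860 to 18363563, minus strand) makes glycine and methylene folate from serine. It stood at 61.0, 60.2 and 65.1 CPM in TOM-1 control and at 30.6, 28.9 and 28.7 CPM with ADI-PEG20. All treated libraries lay below all controls. SHMT1 fell by 1.08 on the log2 scale (SE 0.11; edgeR, adjusted p = 3.15e-05), and by 1.05 (SE 0.09, adjusted p = 2.69e-09) without TOM-1 control replicate 3. In RS4;11 it stood at 52.8, 51.0 and 46.8 CPM in control and 55.2, 53.6 and 51.3 CPM with ADI-PEG20. The difference between the effects in the lines was itself called, at -1.17 (SE 0.15; edgeR, adjusted p = 0.000741).

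MTHFD1, the trifunctional cytosolic enzyme that interconverts formyl, methenyl and methylene folates (ENSG00000100714, chromosome 14, 64388031 to 64463457, plus strand), stood at 235, 226 and 168 CPM in TOM-1 control and 158, 169 and 158 CPM with ADI-PEG20. Control replicate 3 lay within the treated range, and the other controls lay above it. The log2 change was -0.37 (SE 0.13; edgeR, adjusted p = 0.0434), and -0.51 (SE 0.06, adjusted p = 7.15e-07) without replicate 3. The call with all libraries was close to the threshold: it was lost in 8 of the 12 fits that left out a library, with an adjusted p of up to 0.124. RS4;11 gave 231, 223 and 223 CPM in control and 214, 238 and 218 CPM with ADI-PEG20, which overlapped. In GENCODE, 11.0% of the exonic bases of MTHFD1 are shared with ZBTB25 and other genes on the opposite strand, and whether counting used strand is not given in the sources used here.

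In the mitochondrial arm, SHMT2 (ENSG00000182199, chromosome 12, 57229327 to 57234935, plus strand) stood at 408, 405 and 692 CPM in TOM-1 control and 698, 683 and 671 CPM with ADI-PEG20. Control replicate 3 lay within the treated range, and replicates 1 and 2 lay well below it. The log2 change was 0.45 (SE 0.18; edgeR, adjusted p = 0.0833), which was not called, and 0.75 (SE 0.07, adjusted p = 1.73e-08) without replicate 3. In RS4;11 SHMT2 stood at 403, 412 and 375 CPM in control and 422, 444 and 363 CPM with ADI-PEG20, with overlap. Genes on the opposite strand, among them NDUFA4L2, share 9.5% of its exonic bases.

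MTHFD2, the mitochondrial methylenetetrahydrofolate dehydrogenase and cyclohydrolase (ENSG00000065911, chromosome 2, 74198562 to 74217565, plus strand), stood at 229.9, 226 and 163 CPM in TOM-1 control and 336, 332 and 313 CPM with ADI-PEG20. Here control replicate 3 was the lowest library, and no treated library reached down to a control. MTHFD2 rose by 0.67 on the log2 scale (SE 0.13; edgeR, adjusted p = 0.00277), and by 0.52 (SE 0.06, adjusted p = 8.92e-07) without that library. In RS4;11 it stood at 308, 312 and 277 CPM in control and 322, 322 and 301 CPM with ADI-PEG20. The opposite strand carries SLC4A5 and AC006030.1 over 33.2% of the exonic bases of MTHFD2, so part of its counts could belong to them if strand was not used.

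MTHFD1L, the mitochondrial formyltetrahydrofolate synthetase that releases formate (ENSG00000120254, chromosome 6, 150865549 to 151101887, plus strand), was even across the TOM-1 controls, replicate 3 included, at 128, 128 and 132 CPM. With ADI-PEG20 it stood at 189, 191 and 183 CPM, above every control. It rose by 0.54 on the log2 scale (SE 0.10; edgeR, adjusted p = 0.00133), and by 0.55 (SE 0.07, adjusted p = 5.12e-07) without replicate 3. In RS4;11 the values were 149, 146 and 145 CPM in control and 147, 135 and 130.0 CPM with ADI-PEG20. The difference between the lines in the response was called, at 0.64 (SE 0.13; edgeR, adjusted p = 0.0106), and that call was lost without TOM-1 ADI-PEG20 replicate 2, RS4;11 control replicate 1 or RS4;11 ADI-PEG20 replicate 2 (adjusted p up to 0.0596), and without the filter on low counts (adjusted p = 0.0846).

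ALDH1L2, the mitochondrial formyltetrahydrofolate dehydrogenase that oxidises formyl folate to carbon dioxide (ENSG00000136010, chromosome 12, 105019784 to 105084577, minus strand), was the lowest of the folate enzymes. It had 21, 10 and 0 counts in TOM-1 control and 0, 4 and 6 counts with ADI-PEG20. Control replicate 3 was at 0 like treated replicate 1. The summed counts were 2.94-fold higher in control (interval 1.41 to 6.73, counting error only), and 3.82-fold without replicate 3. The fitted change was not called with all libraries (edgeR, adjusted p = 0.305) and was called as lower without replicate 3 (-1.88, SE 0.69, adjusted p = 0.0338). RS4;11 had 66, 74 and 38 counts in control and 76, 82 and 53 counts with ADI-PEG20, which overlapped on the CPM scale.

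**Figure D2:**
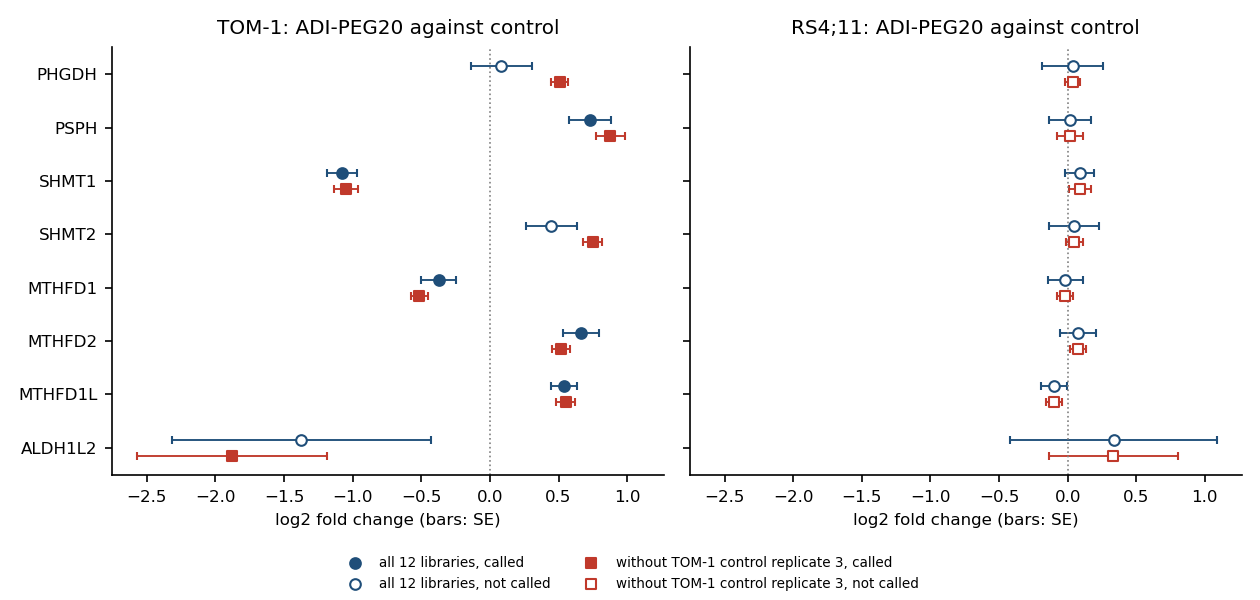
Log2 fold change of 8 enzymes under ADI-PEG20 in TOM-1 (left) and RS4;11 (right), with SE as error bars. Circles are fits on all 12 libraries, squares are fits without TOM-1 control replicate 3, and filled symbols passed an adjusted p of 0.05. PSAT1 is left out because TOM-1 had 9 and 10 counts in all. In TOM-1 SHMT1 lies near -1.08 and PSPH, MTHFD2 and MTHFD1L lie between 0.54 and 0.73, while all symbols for RS4;11 are open.

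Across the 9 genes, ADI-PEG20 in TOM-1 gave 5 calls with all libraries, at a background of 31.9% of all tested genes called. Of these, 3 were higher (15.9% of all genes) and 2 were lower (15.9%). The groups did not overlap for 4 of the 9 genes, PSPH, SHMT1, MTHFD2 and MTHFD1L, against 46.2% of all genes. Without TOM-1 control replicate 3 there were 8 calls, against 41.6% of all genes, with 5 higher (21.8%) and 3 lower (19.8%), and the groups of these 8 did not overlap (59.0%). Shares near the background are no result about these enzymes as a set. The median log2 change over the 8 genes other than PSAT1 was 0.27 with all libraries and 0.51 without replicate 3, against 0.05 and 0.00 over all genes. The called cytosolic enzymes were lower in each fit, and the called mitochondrial enzymes were higher, with the exception of ALDH1L2 without replicate 3.

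In RS4;11 no gene of the 9 was called by edgeR, none had an unadjusted p under 0.05, and the background was 0.0% of all genes. The log2 changes ran from -0.10 for MTHFD1L to 0.34 for ALDH1L2. Without TOM-1 control replicate 3, which enters this comparison through the shared estimate of the spread, 1 of the 9 had an unadjusted p under 0.05 and none was called, against 0.317% of all genes. PSAT1 was the only one of the 9 whose RS4;11 groups did not overlap, which held for 16.8% of all tested genes, and 16.3% without that library. A missed threshold does not show that the treated and control cultures were alike.

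The difference of the effect, TOM-1 minus RS4;11, was called for 2 of the 9 genes, SHMT1 and MTHFD1L, at a background of 11.9% (5.89% higher and 6.05% lower). PSPH (0.71, SE 0.22, adjusted p = 0.0519) and MTHFD2 (0.59, SE 0.19, adjusted p = 0.0607) were just outside the threshold in edgeR. Without TOM-1 control replicate 3 the difference was called for 7 of the 9, at a background of 30.4% (15.7% higher and 14.7% lower): SHMT1 and MTHFD1 were lower, and PHGDH, PSPH, SHMT2, MTHFD2 and MTHFD1L were higher in TOM-1. The values for the first pair were -1.13 and -0.50, and for the other 5 they were 0.47, 0.86, 0.70, 0.44 and 0.65.

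The balance of the arms was also read within each library, as the log2 ratio of the counts of a mitochondrial enzyme to those of its cytosolic counterpart, which no scaling between libraries can move. SHMT2 exceeded SHMT1 in counts by 6.69, 6.72 and 10.6 times in TOM-1 control, and by 22.8, 23.6 and 23.3 times with ADI-PEG20. The mean log2 ratio went from 2.97 ± 0.38 to 4.54 ± 0.026 (SD, n = 3), a 2.98-fold change (exact permutation p = 0.1, two-sided), and 3.47-fold without control replicate 3. In RS4;11 the ratio was 7.62, 8.07 and 7.997 times in control and 7.64, 8.28 and 7.08 times with ADI-PEG20 (exact permutation p = 0.7). With 3 libraries against 3 the exact test cannot go below 0.1.

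MTHFD1L counts were 0.544, 0.567 and 0.786 of MTHFD1 counts in the TOM-1 controls and 1.19, 1.13 and 1.16 of them with ADI-PEG20. The ratio rose 1.86-fold without overlap (exact permutation p = 0.1), and 2.09-fold without replicate 3. MTHFD2 counts were 0.980, 0.998 and 0.974 of MTHFD1 counts in control, where replicate 3 did not stand apart, and 2.12, 1.97 and 1.99 of them with ADI-PEG20, a 2.06-fold change (exact permutation p = 0.1). In RS4;11 these ratios changed 0.944-fold and 1.07-fold, with overlap (exact permutation p = 0.4 and p = 0.3). Counts depend on gene length, so only the change of such a ratio is read here.

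**Figure D3:**
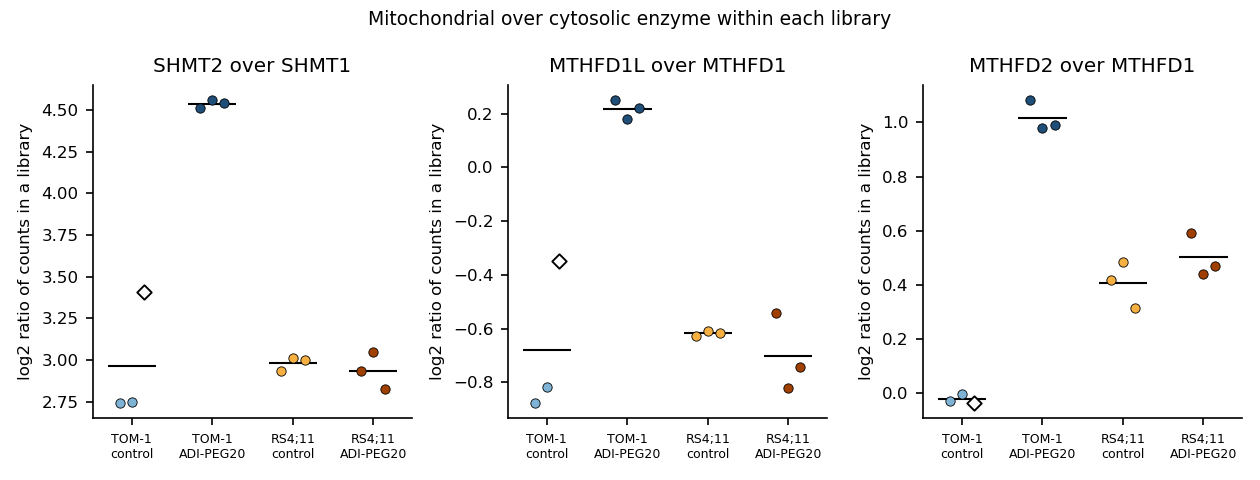
Log2 ratio of counts of a mitochondrial to a cytosolic enzyme within each library, for SHMT2 over SHMT1, MTHFD1L over MTHFD1 and MTHFD2 over MTHFD1. Points are libraries, lines are means of 3, the open diamond is TOM-1 control replicate 3, and the axes do not start at 0. The treated TOM-1 libraries lie above all other libraries in each panel, at 4.51 to 4.56, 0.18 to 0.25 and 0.98 to 1.08.

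The lines also differed without the drug. In control culture PHGDH was higher in TOM-1 by 0.88 on the log2 scale (SE 0.23; edgeR, adjusted p = 0.00947), which became 0.45 (SE 0.06) once TOM-1 control replicate 3 was left out. PSPH was higher in TOM-1 by 0.96 (SE 0.15, edgeR adjusted p = 0.00039), and by 0.80 (SE 0.10) without that library. MTHFD2 was lower in TOM-1, by -0.54 (SE 0.13, edgeR adjusted p = 0.00761), or -0.40 (SE 0.06) without it. SHMT1 was slightly higher in TOM-1 (0.31, SE 0.10, edgeR, adjusted p = 0.0395; 0.27 without replicate 3), a call lost in 11 of the 12 fits that left out a library, the exception being TOM-1 control replicate 3. SHMT2 (0.34, adjusted p = 0.18), MTHFD1 (-0.11, adjusted p = 0.57) and MTHFD1L (-0.19, adjusted p = 0.157) were not called, and without replicate 3 their values were 0.03, 0.03 and -0.20, of which that of MTHFD1L was called (adjusted p = 0.0129).

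ALDH1L2 was lower in TOM-1 control, with 31 counts against 178, a 6.62-fold ratio (interval 4.50 to 10.03), and 5.10-fold without TOM-1 control replicate 3. Like PSAT1, it passed the filter only through RS4;11. Its call (edgeR, adjusted p = 0.0191) was lost without RS4;11 control replicate 1 or 2, at an adjusted p of up to 0.0572. Fits on the 6 control libraries alone kept the calls for PSAT1 and PSPH only, with edgeR adjusted p of 0.0789 for PHGDH, 0.148 for SHMT1, 0.0855 for MTHFD2 and 0.0793 for ALDH1L2. Leaving these PSAT1 and ALDH1L2 calls aside, since the filter fixed their direction, 4 of the other 7 genes were called between the control cultures, 3 higher and 1 lower in TOM-1, at a background of 34.7% (16.2% higher and 18.4% lower). Without TOM-1 control replicate 3, 5 of these 7 were called, at a background of 52.8%, with 3 higher (25.4%) and 2 lower (27.5%).

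Under ADI-PEG20 the lines differed in 6 of the 7 genes other than PSAT1 and ALDH1L2, 4 higher and 2 lower in TOM-1, at a background of 47.2% (23.1% higher and 24.0% lower). The same counts held without TOM-1 control replicate 3, at 62.9% (31.4% and 31.5%). PHGDH, PSPH, SHMT2 and MTHFD1L were higher in TOM-1, by 0.93, 1.67, 0.74 and 0.45 on the log2 scale. SHMT1 was lower by -0.86 (SE 0.11; edgeR, adjusted p = 3.51e-05) and MTHFD1 by -0.46 (SE 0.13, adjusted p = 0.0107). PSAT1 and ALDH1L2 were lower in TOM-1 here too, with the filter again fixing the direction. SHMT1 was therefore on opposite sides between the lines in the absence and presence of the drug. MTHFD2, lower in TOM-1 control, was not called under ADI-PEG20 (0.05, SE 0.13, adjusted p = 0.771).

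Levels of different genes were compared per kilobase of exonic length, the union of all exons annotated for a gene in GENCODE. This union can be longer than a transcript, so orders of different genes depend on it. SHMT2 had the highest mean in all 4 groups, from 81.9 ± 4.01 CPM per kilobase in RS4;11 control to 141.5 ± 2.79 in TOM-1 with ADI-PEG20 (SD, n = 3). In TOM-1 control PHGDH (50.6 ± 22.5) and MTHFD2 (42.4 ± 7.67) followed, within their spread. Their order rested on replicate 3: in replicates 1 and 2 PHGDH stood at 37.6 and 37.7 and MTHFD2 at 47.2 and 46.3, so that without replicate 3 MTHFD2 was the higher and the values did not overlap. Next came MTHFD1L (25.7 ± 0.440), PSPH (24.8 ± 4.92) and MTHFD1 (22.3 ± 3.90), within their spread, and then SHMT1 (8.53 ± 0.359). Without replicate 3 these means were 25.5, 22.2, 24.6 and 8.33, with MTHFD1 above PSPH. PSAT1 and ALDH1L2 were last in TOM-1. In RS4;11 control MTHFD2 (61.4 ± 3.91) and PSAT1 (59.3 ± 2.51) followed and did not differ beyond their spread. SHMT1 and ALDH1L2 were lowest there, at 6.90 ± 0.421 and 0.302 ± 0.0773 CPM per kilobase. Per kilobase, PSAT1 thus had the highest value of serine synthesis in RS4;11, and PHGDH in TOM-1. The order in RS4;11 rested on the lengths, 9217 bases for PHGDH and 2188 for PSAT1. Without division by length, PHGDH was the higher in RS4;11 control, at 253 against 130 CPM.

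Around these enzymes, 56 further genes of serine, glycine, folate and methionine metabolism were examined, of which 49 could be tested. In TOM-1 25 were called, 10 higher and 15 lower, against 31.9% of all genes, 15.9% in each direction. These shares are also the background for each list below. Without TOM-1 control replicate 3, 31 of 50 were called, 13 higher and 18 lower, against 41.6% of all genes. In each fit the higher genes include BHMT and DMGDH. The filter on low counts fixed their direction, so their part in these counts is no support. The median log2 change was -0.22, against 0.05 over all genes, and -0.08 against 0.00 without that library. In RS4;11 edgeR called none of them in either fit, with 0 and 10 at an unadjusted p under 0.05. The difference between the lines was called for 11, 4 higher and 7 lower (11.9% of all genes), and for 21 without that library (30.4%). Each gene named below as called in TOM-1 kept its direction and its call without TOM-1 control replicate 3.

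Of 6 tested genes of folate uptake and storage, 3 were called in TOM-1 under ADI-PEG20, all lower. The median over the 6 was -0.98, and -0.83 without TOM-1 control replicate 3. SLC19A1, the reduced folate carrier that also takes up methotrexate, stood at 106 to 203 CPM in control and 42.1 to 52.0 CPM with ADI-PEG20, and fell by 1.56 on the log2 scale (SE 0.22; edgeR, adjusted p = 0.000319), or by 1.20 without TOM-1 control replicate 3. GGH, which trims the polyglutamate tails of folates, went from 61.3 to 95.5 CPM down to 29.8 to 33.0 CPM (-1.22, SE 0.16, edgeR adjusted p = 0.000181; -0.997 without replicate 3). The third was FPGS, which adds those tails (-0.74, edgeR adjusted p = 0.0328, and -0.29 without TOM-1 control replicate 3). SLC25A32, the mitochondrial folate carrier, was not called (-0.10, adjusted p = 0.973). SLC46A1 had 0 counts in all TOM-1 libraries, and FOLR2 had at most 5 counts in a TOM-1 library and was not called.

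Of the other folate enzymes 4 of 10 tested were called, 1 higher and 3 lower. MTHFD2L, the isozyme of MTHFD2, moved against MTHFD2: it went from 15.1 to 20.8 CPM in control down to 7.49 to 9.55 CPM with ADI-PEG20 (-1.07, SE 0.17, edgeR adjusted p = 0.000723). TYMS, thymidylate synthase, was not called with all libraries (-0.22, adjusted p = 0.185) and was lower without TOM-1 control replicate 3 (-0.29, edgeR adjusted p = 0.00522). ALDH1L1, the cytosolic relative of ALDH1L2, had 0 counts in all 12 libraries.

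Of 10 transporters of serine and glycine 5 were called, 3 higher and 2 lower. SLC6A9, a glycine transporter of the plasma membrane, went from 25.9 to 28.6 CPM up to 74.4 to 80.3 CPM (1.49, SE 0.15, edgeR adjusted p = 3.3e-05), and SLC38A2, a neutral amino acid transporter, rose by 1.36 (adjusted p = 0.0014). Of the sideroflexins, a family of mitochondrial carriers in which SFXN1 transports serine, SFXN2 was lower by -1.89 (SE 0.17, edgeR adjusted p = 1.59e-05) and SFXN1 by -0.54 (SE 0.14, adjusted p = 0.0114). SFXN3 was not called (0.06, SE 0.12, edgeR adjusted p = 0.76). SLC1A4 and SLC1A5, exchangers of small neutral amino acids, were not called (0.27 and 0.24) and were higher without TOM-1 control replicate 3 (0.19 and 0.40, adjusted p = 0.0265 and 2.25e-05). The response of SFXN2 differed between the lines (-1.81, edgeR adjusted p = 0.00074), as did that of SLC6A9 (1.21, adjusted p = 0.0049). SFXN2 RNA fell in the same treated libraries in which MTHFD2 and MTHFD1L rose.

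In glycine cleavage, 1 of 4 genes was called. GLDC, the decarboxylase that starts it, went from 46.4 to 49.8 CPM down to 23.1 to 25.9 CPM (-0.99, SE 0.11, edgeR adjusted p = 7.93e-05). AMT, the aminomethyltransferase of the same complex, had at most 39 counts in a library and was not called (0.52, adjusted p = 0.716).

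In the methionine cycle and transsulfuration 4 of 9 tested genes were called, 2 higher and 2 lower. AHCY and MAT2A were the lower ones, and the higher ones include BHMT, whose direction was fixed by the filter. AHCY, which hydrolyses S-adenosylhomocysteine, went from 299.9 to 418 CPM down to 96.3 to 112 CPM (-1.74, SE 0.13, edgeR adjusted p = 6.48e-06). MAT2A, which makes S-adenosylmethionine, stood at 412, 427 and 155 CPM in control, the lowest being replicate 3, and at 141 to 153 CPM with ADI-PEG20 (-1.18, SE 0.28, edgeR adjusted p = 0.00762; -1.52 without replicate 3). BHMT, which remethylates homocysteine with betaine, had 3 counts in all TOM-1 controls together and 99 in the treated libraries, a 34.8-fold ratio (95% exact interval 11.6 to 171.4), and 26.8-fold without TOM-1 control replicate 3. With 0 counts in RS4;11, it passed the filter only through the treated TOM-1 libraries, so its direction was a condition of its being tested and its call is no support. CTH was not called (-0.68, adjusted p = 0.228), and CBS, with at most 6 counts in a library, was not tested.

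Of the choline-derived donors 3 of 4 tested genes were called, DMGDH among them. DMGDH, the dimethylglycine dehydrogenase of mitochondria, had 19 counts in the TOM-1 controls together and 818 with ADI-PEG20, a 45.3-fold ratio (interval 28.8 to 75.7), and 34.9-fold without TOM-1 control replicate 3. It had 0 counts in every RS4;11 library and, like BHMT, passed the filter only through the treated TOM-1 libraries. The call for DMGDH is therefore no support either. SARDH, which acts on sarcosine, rose by 1.40 (SE 0.42, edgeR adjusted p = 0.0229), from 0.507 to 1.05 CPM up to 1.71 to 2.79 CPM. Among genes that use serine, 5 of 6 tested were called, 2 higher and 3 lower, and SDSL, a serine dehydratase homologue, went from 1.56 to 2.81 CPM up to 10.4 to 12.4 CPM (2.39, SE 0.47, edgeR adjusted p = 0.00238).

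**Figure D4:**
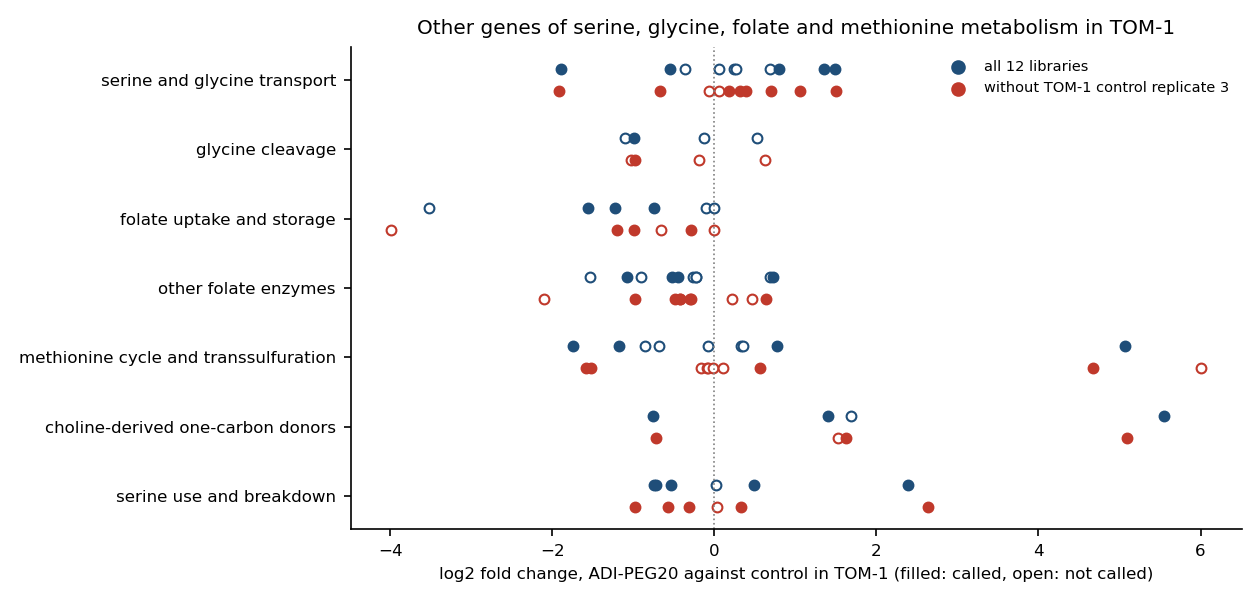
Log2 fold change under ADI-PEG20 in TOM-1 for the tested genes among 56 of serine, glycine, folate and methionine metabolism, by list, with all 12 libraries (blue) and without TOM-1 control replicate 3 (red). Filled points passed an adjusted p of 0.05. Values beyond 4 in either direction belong to genes at or near 0 counts in a group and depend on the small count added by the fit. The folate uptake and storage list holds called points on the lower side only.

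ATF4 itself was lower at the RNA level in treated TOM-1: it stood at 516, 527 and 928 CPM in control, the highest being replicate 3, and at 435 to 439 CPM with ADI-PEG20 (-0.59, SE 0.19, edgeR adjusted p = 0.0327, and -0.26 without replicate 3, adjusted p = 0.000646). In RS4;11 it stood at 573 to 606 CPM in control and 559 to 621 CPM with ADI-PEG20. ATF4 RNA and the RNA of PSPH, MTHFD2 and MTHFD1L thus moved in opposite directions in TOM-1. These are levels of RNA alone. The protein and activity of ATF4 were not measured, and its part in these changes was not tested.

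The genes whose levels were most like those of 4 of the enzymes were found by Pearson's r of log2 CPM centred within each line, over 11 libraries without TOM-1 control replicate 3 and among 10541 genes with a mean of at least 5 CPM. These r are a description: libraries are shared, and the effect of ADI-PEG20 in TOM-1 dominates them. For PHGDH they included WARS2-AS1 (0.991) and KLHL2 (0.990), whose r over all 12 libraries were 0.316 and 0.088. For SHMT2 they included TLK2 (0.995) and FAM107B (0.994), with 0.641 and 0.407 over all 12. For MTHFD2 they were ALDH5A1, SEC62 and RB1, and their r held with all 12 libraries, at 0.995, 0.990 and 0.983. For MTHFD1 they were RPL26 (0.993), AMD1 (0.991) and MLC1 (0.989), with 0.184, 0.927 and 0.657 over all 12.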

How the data were processed

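Poly(A) RNA from 12 libraries, 3 in each of 4 groups, was measured, and groups came from the sample labels. The authors deposited a single table of raw counts per Ensembl gene, not normalized. The submitters' processing notes name STAR, SAMtools, featureCounts and hg38. Versions, the use of strand, the treatment of reads that map to several places and the annotation release are not given in the sources used here. Symbols were found for 60463 of 60664 identifiers, and 29301 genes had 0 counts in every library. Lengths and positions came from GENCODE release 29 (58396 identifiers matched) and promoter sequences from RefSeq (GRCh38.p14).

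Tests used edgeR 4.0.16 under R 4.3.3: filterByExpr, TMM scaling, a group-means model over all 12 libraries, glmQLFit and glmQLFTest, with Benjamini-Hochberg adjustment over all tested genes and a threshold of 0.05. SE is the log2 fold change divided by the square root of F. Compared were treated and control libraries of each line, the difference between these effects, and the lines with each other in control and in treated culture. Contrasts within a line share control libraries with the contrasts between the lines. Ratios within a library had 0.5 added to each count and were compared by an exact permutation test, two-sided (scipy 1.17.1). Intervals and floors of 3 counts cover counting error alone, as the reads carry no molecular identifiers and can share a molecule of origin. The test was checked on counts simulated with means and spread taken without TOM-1 control replicate 3. For TOM-1, edgeR recovered 88 of 100 genes changed 2-fold and 81 of 100 changed 1.5-fold, with 11 false calls. The check does not cover a library that stands apart.

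Alternatives were DESeq2 size factors, upper-quartile scaling, no filter, a mean of 10 counts, the DESeq2 1.42.0 Wald test, a replicate block, limma 3.58.1 voom with quality weights, fits on only the 6 libraries compared, and fits without each library in turn. The members, lists and alternatives were chosen with earlier results of these data known. Named besides the 9 enzymes were 15 genes set by name, and the up to 5 genes of the wider list with the largest called change in each direction in TOM-1 and a mean of at least 1 CPM. SLC38A2, FPGS, SFXN3, SLC46A1 and FOLR2 were named after their values were seen. Some genes that the rules name are not reported here.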

Additional observations from a re-analysis of the deposited data

Results flagged for a closer look

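The effect of ADI-PEG20 differed between the lines by the test of the difference itself for 2 of the 9 enzymes. For SHMT1 the log2 effect in TOM-1 minus that in RS4;11 was -1.17 (SE 0.15; edgeR, adjusted p = 0.000741), with a fall in TOM-1 in 3 of 3 treated libraries relative to every control, and overlapping groups in RS4;11. For MTHFD1L the difference was 0.64 (SE 0.13; edgeR, adjusted p = 0.0106), with all 3 treated TOM-1 libraries above the controls. The call for MTHFD1L was lost in 3 of the 12 fits that left out a library (edgeR, adjusted p up to 0.0596). It was also lost without the filter on low counts (edgeR, adjusted p = 0.0846). TOM-1 control replicate 3 lay within 5 CPM of the other TOM-1 controls for each of these genes, and without it the differences were -1.13 and 0.65.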

How the results depend on the processing

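With TOM-1 control replicate 3 left out, ADI-PEG20 gave 8 in place of 5 calls among the 9 enzymes in TOM-1, and over all fits that left out a library the count ran from 4 to 8. For the difference between the lines it ran from 1 to 7 enzymes, 8 to 21 genes of the wider list and 1169 to 5567 of all genes. It ran from 0 to 58 of all genes in RS4;11 and from 4731 to 9681 between the control cultures. Voom with quality weights called 8 enzymes in TOM-1, 8 in the difference, 25 and 29 wider-list genes in the difference and between controls, and 8434, 17, 5868 and 10037 of all genes in TOM-1, in RS4;11, in the difference and between controls. The fits on 6 libraries called 3 and 2 enzymes, 14 and 12 wider-list genes and 2639 and 3548 of all genes in TOM-1 and between controls, and 3 of all genes in RS4;11. The DESeq2 Wald test called 17 wider-list genes and 3228 of all genes in the difference, and without the filter 1 enzyme was called there. Counts for all libraries were 5, 0, 2 and 6 enzymes, 25, 0, 11 and 19 wider-list genes, and 5527, 0, 2072 and 6014 of all genes, for TOM-1, RS4;11, the difference and the controls.

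Signs turned only for values that were not called. PHGDH in TOM-1 was -0.019 under upper-quartile scaling and -0.12 to 0.51 with a library left out. Its difference between the lines was -0.013 with DESeq2 size factors and the DESeq2 test, -0.070 under upper-quartile scaling and -0.16 to 0.47 with a library left out. MTHFD1 between control cultures was 0.026 under voom and -0.24 to 0.027 with a library left out, and MTHFD2 between treated cultures -0.015 under upper-quartile scaling and -0.056 to 0.059 with a library left out. With a library left out, RS4;11 effects ran from -0.0012 to 0.077 for PHGDH, -0.061 to 0.10 for PSPH, -0.014 to 0.13 for SHMT2 and -0.066 to 0.018 for MTHFD1. The causes were not tested.

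In TOM-1 the call for MTHFD1 was also lost without the filter (adjusted p = 0.125) and on 6 libraries (0.136), and that for PSPH on 6 libraries (0.0527). The call for MTHFD1L in the difference was lost without the filter (0.0846). SHMT1, MTHFD2 and MTHFD1L in TOM-1 and SHMT1 in the difference kept their calls in every alternative run. In TOM-1 deviations of same-numbered libraries correlated at -0.062 to -0.012, against -0.053 to 0.07 for different-numbered ones. This check cannot decide on pairing in TOM-1, because control replicate 3 enters the mean from which each control deviation was taken. In RS4;11 same-numbered libraries gave 0.031 to 0.145, and different-numbered ones -0.095 to 0.055. A weak pairing by number in RS4;11 can therefore not be excluded, and the main model did not use it. With the replicate number as a block, 5324 genes were called in TOM-1 and 1939 in the difference, where MTHFD2 was called (0.60, adjusted p = 0.0414). For PSAT1 and ALDH1L2 in TOM-1 the number of reads limits what can be seen.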

Other observations

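The genes on either side of PSAT1 on chromosome 9 were read after its near absence from TOM-1 had been seen. CEP78 (78236062 to 78279690), the nearest protein-coding gene before it, stood at 34.7 ± 7.78 CPM in TOM-1 control and 78.4 ± 6.02 CPM in RS4;11 control (SD, n = 3). GNAQ stood at 35.1 ± 14.9 and 57.5 ± 3.89 CPM, and VPS13A at 57.1 ± 33.2 and 102.2 ± 0.498 CPM. TLE4 (79571773 to 79726882), the nearest after it, was higher in TOM-1, at 95.03 ± 33.0 against 34.9 ± 6.10 CPM, and TLE1 stood at 41.1 ± 8.89 and 39.9 ± 7.19 CPM. GNA14, between VPS13A and GNAQ, reached no more than 2 counts per library, and SPATA31D4 and SPATA31D3, beyond TLE1, had 0. PSAT1 stood at 0.0853 ± 0.148 CPM in TOM-1 control, between CEP78 and TLE4. These TOM-1 control means include replicate 3. Under ADI-PEG20, TOM-1 and RS4;11 stood at 31.2 and 73.4 CPM for CEP78, 57.9 and 60.6 for GNAQ, and 69.2 and 119.0 for VPS13A. There TLE4 stood at 107.8 and 36.4 CPM, and TLE1 at 70.1 and 37.1 CPM.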
